A study of Mus musculus with 18 samples.

Results

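Hepatic mRNA of 38 genes of the endoplasmic reticulum (ER) was followed across 6 groups of mice. The 38 genes encode the stress sensors of the ER, its chaperones and disulfide enzymes, the machinery of ER-associated degradation, the translocation channel with its associated proteins, and the ubiquitin-like protein UFM1. They come from a list of gene names with no threshold on a measured value, chosen with earlier results of these data known. All 38 were found once in the table, with a usable estimate in all 6 groups, among 37303 genes. By role they fall into 5 genes of stress sensing (Atf6, Atf6b, Ern1, Xbp1 and Wfs1, called sensors here), 11 chaperones, 6 disulfide enzymes, 9 degradation genes, 6 translocation genes and 1 ufmylation gene.

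The study asked how loss of the kinase GCN2 or of the transcription factor ATF4 alters the response of the liver to asparaginase (ASNase), an enzyme drug against leukemia that removes asparagine and glutamine from the blood. RNA-Seq of liver covered 18 mice in 6 groups of 3: wild type (WT) mice, Gcn2-/- mice that lack both copies of Gcn2, and Atf4-/- mice that lack both copies of Atf4, each strain given ASNase or the PBS excipient. ASNase was injected intraperitoneally at 3 IU per gram body weight once daily, 8 injections in all, and mice were killed 7.5 h after the last one. All mice were on the C57BL/6J background and 8 to 12 weeks old by the design text, or 8 to 16 weeks by the sample labels. Both deletions were whole-body, not confined to the liver. Of the 3 mice per group, 1 was male in WT PBS and in both Gcn2-/- groups, and 2 were male in WT ASNase and in both Atf4-/- groups. The sexes therefore differ between WT PBS and WT ASNase and between strains, and their part in the results was not tested.

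The values are FPKM, sequenced fragments scaled to transcript length and to the size of the library, 1 estimate per group made by the authors with Cuffdiff from its 3 libraries together, with an interval around each. No spread between mice can be computed from them, so there is no SD, n or p-value below, and no difference has a replicate check. Between groups, the call of a change required that the log2(FPKM + 0.1) of a gene differ by more than 1.5, that its FPKM be over 3 in either group, and that the intervals not overlap. The distance from a value to the edge of its interval had a median over the 38 genes of 46.1% to 51.8% of the value, depending on the group, and was widest for Hsp90b1 and P4hb. The terms rose and fell are kept for called genes, and other differences are given as values. In whole liver, fewer cells of a type and less RNA per cell cannot be told apart.

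Proteins that are secreted or sit in membranes enter the ER through the SEC61 channel, are folded there by chaperones such as BiP (encoded by Hspa5) and by disulfide enzymes, and are handed to the degradation machinery if folding fails. The hepatocyte, which secretes most plasma proteins, has a large ER. When unfolded proteins accumulate, IRE1 (encoded by Ern1), ATF6 and PERK (encoded by Eif2ak3) start the unfolded protein response. IRE1 splices Xbp1 mRNA, which then encodes an active transcription factor, ATF6 is cut to release a transcription factor, and both factors activate chaperone and degradation genes. PERK phosphorylates eIF2, as GCN2 does, and so raises synthesis of ATF4 and of its targets. FPKM per gene does not separate spliced from unspliced Xbp1, and mRNA levels do not report the activity of IRE1, ATF6 or PERK.

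A promoter element of this response, the ER stress response element (ERSE), was looked for because it links many of these genes to ATF6 and XBP1. The letters searched were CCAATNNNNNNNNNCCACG for ERSE, ATTGGNCCACG for ERSE-II and TGACGTGG for the unfolded protein response element (UPRE), on both strands of the 250 bases before each RefSeq start in GRCm38.p6. The motifs overlap in part: ERSE and ERSE-II share their CCACG end, UPRE read on its other strand begins with the same CCACG, and the ATTGG of ERSE-II is the reverse complement of the CCAAT of ERSE. Windows were found for 31 of the 38 genes, 2 of them under a newer name. ERSE matched in 9 of the 31 genes (Hspa5, Hsp90b1, Pdia6, Calr, Canx, Syvn1, Derl3, Creld2 and Ero1lb), against 0.113% of 32851 windows. ERSE-II matched in Herpud1 alone, against 0.0304% of windows, and UPRE in 0 of the 31, against 0.563%. Printed here are Hspa5 as the textbook case, Derl3 and Creld2 as called genes with a match, Sdf2l1 as a called gene without these letters, Canx as a gene with a match and nearly level values, and Herpud1 for its ERSE-II. Capitals mark the match on the strand of the gene, and a match on the other strand appears as its reverse complement. The windows lie at chr2:34771840-34772089 (plus strand) for Hspa5, chr10:75893148-75893397 (plus strand) for Derl3, chr15:88819396-88819645 (plus strand) for Creld2, chr16:17132384-17132633 (minus strand) for Sdf2l1, chr11:50325674-50325923 (minus strand) for Canx and chr8:94386179-94386428 (plus strand) for Herpud1. In GENCODE M21 the Hspa5 gene begins at 34771970, inside this window. The other called genes of the 38 are protein-coding genes at chr11:5520659-5525893 (Xbp1, plus strand) and chr11:16500530-16508484 (Sec61g, minus strand).
Hspa5: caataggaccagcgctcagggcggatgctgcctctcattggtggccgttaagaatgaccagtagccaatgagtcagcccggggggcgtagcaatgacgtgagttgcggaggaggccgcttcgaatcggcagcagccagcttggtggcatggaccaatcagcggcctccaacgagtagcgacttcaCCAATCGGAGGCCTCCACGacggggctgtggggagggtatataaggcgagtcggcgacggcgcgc
Derl3: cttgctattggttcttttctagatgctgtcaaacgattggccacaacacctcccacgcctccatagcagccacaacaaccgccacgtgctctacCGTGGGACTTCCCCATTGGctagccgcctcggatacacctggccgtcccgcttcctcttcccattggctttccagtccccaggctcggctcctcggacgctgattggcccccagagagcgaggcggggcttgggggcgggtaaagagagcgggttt
Creld2: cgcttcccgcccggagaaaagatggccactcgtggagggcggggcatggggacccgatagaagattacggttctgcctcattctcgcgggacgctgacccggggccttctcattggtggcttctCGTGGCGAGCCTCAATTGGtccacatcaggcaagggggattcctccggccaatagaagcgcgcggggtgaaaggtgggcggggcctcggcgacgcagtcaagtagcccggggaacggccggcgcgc
Sdf2l1: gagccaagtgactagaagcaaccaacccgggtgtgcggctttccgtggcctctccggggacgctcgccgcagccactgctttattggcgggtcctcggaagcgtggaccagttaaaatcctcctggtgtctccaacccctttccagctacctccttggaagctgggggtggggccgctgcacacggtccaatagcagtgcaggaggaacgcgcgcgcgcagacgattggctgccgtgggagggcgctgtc
Canx: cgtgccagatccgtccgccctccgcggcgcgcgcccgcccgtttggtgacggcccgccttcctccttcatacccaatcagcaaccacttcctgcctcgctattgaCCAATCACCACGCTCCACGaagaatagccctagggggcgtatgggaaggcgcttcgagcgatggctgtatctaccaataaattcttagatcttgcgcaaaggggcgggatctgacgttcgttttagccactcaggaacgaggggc
Herpud1: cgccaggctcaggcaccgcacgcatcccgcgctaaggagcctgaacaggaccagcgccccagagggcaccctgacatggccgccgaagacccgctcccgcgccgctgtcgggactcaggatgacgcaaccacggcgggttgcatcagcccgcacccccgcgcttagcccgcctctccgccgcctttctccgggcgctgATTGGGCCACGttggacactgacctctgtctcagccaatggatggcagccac

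The match ended 47 bases before the RefSeq start in Hspa5, 138 in Derl3, 108 in Creld2, 127 in Canx and 42 in Herpud1. Hsp90b1 held 2 matches in its window. The 10 genes with a match and the 21 with a window but no match had near-equal median ASNase responses in the knockouts. The medians were 0.76 and 0.76 on the log2 scale in Gcn2-/- mice, 0.87 and 0.88 in Atf4-/- mice, and -0.57 and -0.23 in WT mice. A match is a description of letters, and its absence says only that these letters were not in this window.

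In WT livers most of the 38 genes had lower values after ASNase than after PBS, and none was called. Of the 37 genes that could be compared, 31 were lower and 6 higher, and the median log2 difference was -0.25, where the median over 9084 genes was -0.01. Of all genes compared, 0.881% were called and 49% were higher. Chaperones had the lowest median, at -0.54, and sensors lay at -0.01. Sdf2l1, an ER cochaperone, had the largest difference, from 25.0 to 11.2 FPKM or -1.16 on the log2 scale, with overlapping intervals. It passed a difference over 1 outside its combined error, both log2 errors added in quadrature, but not the limit of 1.5.

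In both knockouts the direction was the other way. In Gcn2-/- livers 34 of the 38 genes were higher after ASNase, 10 of them by more than 1 on the log2 scale, and the median was 0.75 against 0.02 over 9218 genes, of which 51.5% were higher. Derl3, Sdf2l1 and Creld2 were called and rose, where 1.56% of all genes were called higher, and 6.35% exceeded a difference of 1. In Atf4-/- livers 34 of the 38 were higher, 19 by more than 1, and the median was 0.95 against 0.08 over 9485 genes, of which 53.8% were higher. The called genes were again Derl3, Sdf2l1 and Creld2, where 2.74% of all genes were called higher and 10.9% exceeded 1. Without the demand for separate intervals, Hspa5, Hyou1, Manf and Xbp1 passed the limit of 1.5 in Atf4-/- livers as well, and the count went from 3 to 7, where 5.23% of all genes passed.

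**Figure D1:**
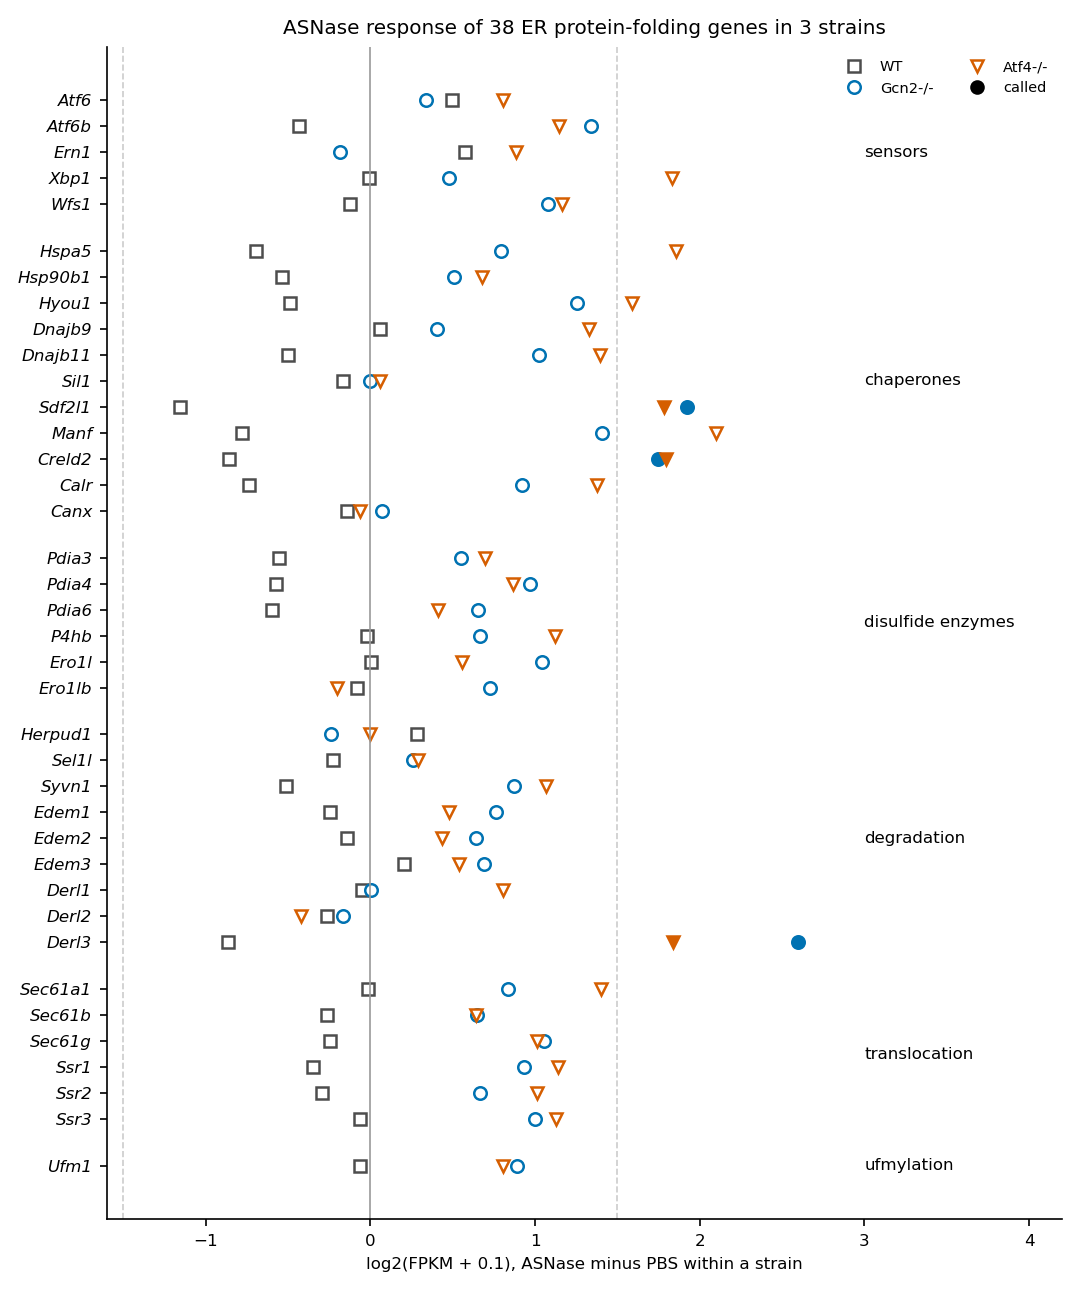
The horizontal axis is the difference of log2(FPKM + 0.1) between ASNase and PBS within a strain, for each of the 38 genes grouped by role, with squares for WT, circles for Gcn2-/- and triangles for Atf4-/-, filled where the gene was called and with dashed lines at the limit of 1.5. Filled marks are present for Derl3, Sdf2l1 and Creld2 in both knockouts and for no gene in WT.

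The sensors came first in the order of roles. ATF6, the membrane-bound transcription factor, went from 10.9 FPKM (PBS) to 15.4 (ASNase) in WT, from 12.2 to 15.4 in Gcn2-/- and from 13.3 to 23.3 in Atf4-/- mice. Its value in Atf4-/- ASNase was the highest of the 6, and the intervals of the groups overlapped. Its homolog Atf6b went from 9.37 FPKM to 6.9 in WT, from 7.09 to 18.1 in Gcn2-/- and from 7.93 to 17.6 in Atf4-/- mice, so that both knockouts were higher after ASNase and WT was lower.

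Ern1, the gene of IRE1, followed another course. It had 10.7 FPKM with PBS and 16.0 with ASNase in WT, 10.7 and 9.46 in Gcn2-/-, and 14.2 and 26.4 in Atf4-/- mice. It was the only gene of the 38 whose value differed by more than 1 on the log2 scale between the knockouts under ASNase, at 1.47 higher in Atf4-/- than in Gcn2-/- mice, and its intervals overlapped. Over all genes 5.51% were higher by more than 1 in that comparison.

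Xbp1, the mRNA that IRE1 splices, stood at 95.2 and 94.6 FPKM (PBS and ASNase) in WT, 161 and 224 in Gcn2-/-, and 101 and 359.6 in Atf4-/- mice. Under ASNase it was 3.80-fold higher in Atf4-/- than in WT mice, with intervals of 146 to 573 and 49.2 to 140.1, and was called. This call ended under median-ratio scaling of the groups, where the intervals just overlapped, 141.4 to 554 and 49.9 to 142.1. The log2 difference was 1.85 after scaling and 1.93 before. In Gcn2-/- livers it was already higher than WT under PBS, by 0.76 on the log2 scale with overlapping intervals. Wfs1, which encodes an ER membrane protein that restrains ATF6, had 3.86 FPKM with PBS and 3.53 with ASNase in WT, 2.87 and 6.19 in Gcn2-/-, and 2.81 and 6.42 in Atf4-/- mice and was more than 1 higher on the log2 scale after ASNase in both knockouts, with overlapping intervals. In both knockouts Wfs1 passed the minimum of 3 FPKM only through its ASNase value.

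Among the chaperones, Sdf2l1 and Creld2 were called in both knockouts. Sdf2l1 had 25.0 FPKM with PBS and 11.2 with ASNase in WT, 22.0 and 83.7 in Gcn2-/-, and 19.1 and 65.8 in Atf4-/- mice. It rose 3.81-fold in Gcn2-/- and 3.45-fold in Atf4-/- mice. Its interval in Gcn2-/- ASNase, 41.2 to 126, lay above the 12.2 to 31.7 of Gcn2-/- PBS, and that of Atf4-/- ASNase, 35.0 to 96.6, above the 10.2 to 28.0 of Atf4-/- PBS.

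Creld2, a secreted ER stress protein with disulfide isomerase activity, had 29.3 and 16.1 FPKM (PBS and ASNase) in WT, 26.2 and 87.9 in Gcn2-/-, and 15.0 and 52.4 in Atf4-/- mice. It rose 3.36-fold in Gcn2-/- and 3.48-fold in Atf4-/- mice, and its interval in each knockout ASNase group was separate from that of the PBS group of its strain. Under PBS its value was 0.96 lower on the log2 scale in Atf4-/- than in WT mice, with overlapping intervals.

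Manf, which encodes a secreted factor retained by BiP, had 146 FPKM with PBS and 84.9 with ASNase in WT, 132 and 351 in Gcn2-/-, and 67.7 and 289.9 in Atf4-/- mice. Its 4.28-fold difference in Atf4-/- mice was the largest of the 38 in that strain, but the intervals of 85.6 to 494 and 12.1 to 123 overlapped. Its exons share bases with Dcaf1, Rbm15b and 4930524O07Rik, so some of its fragments may belong to them. Hspa5, which encodes BiP, the main HSP70 of the ER, had 341 FPKM with PBS and 211 with ASNase in WT, 305 and 529.6 in Gcn2-/-, and 191 and 691 in Atf4-/- mice. Its ratio of ASNase to PBS was 3.63 for Atf4-/-, 1.74 for Gcn2-/- and 0.618 for WT mice, again with overlapping intervals in each.

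Hyou1, an HSP70-like exchange factor for BiP, ran from 31.1 FPKM in WT ASNase and 26.3 in Atf4-/- PBS to 86.5 in Gcn2-/- ASNase and 79.5 in Atf4-/- ASNase. The BiP cochaperones differed among themselves. Dnajb11 had 148 FPKM in Gcn2-/- ASNase and 155 in Atf4-/- ASNase against 48.7 in WT ASNase. Dnajb9, a J-domain partner of BiP, had 55.1 and 57.4 FPKM (PBS and ASNase) in WT, 72.8 and 96.4 in Gcn2-/-, and 34.7 and 87.2 in Atf4-/- mice, and its Atf4-/- ASNase interval of 49.6 to 125 lay just above the 20.2 to 49.2 of Atf4-/- PBS at a log2 difference of 1.33. Sil1, the other exchange factor for BiP, was nearly level, between 27.7 and 31.1 FPKM over the 6 groups.

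Hsp90b1, the HSP90 of the ER, had 321 FPKM with PBS and 221 with ASNase in WT, 329.5 and 469 in Gcn2-/-, and 288 and 461 in Atf4-/- mice, with an interval reaching 0 in WT PBS, Atf4-/- PBS and Atf4-/- ASNase. Of the lectin chaperones that hold glycoproteins, the soluble calreticulin gene Calr had 402 and 242 FPKM (PBS and ASNase) in WT, 326 and 616 in Gcn2-/-, and 285 and 740.0 in Atf4-/- mice. Its membrane-bound counterpart calnexin, Canx, stayed between 104 and 125 FPKM in the 6 groups. These genes share a ligand type and an ERSE match, and differed in these values.

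**Figure D2:**
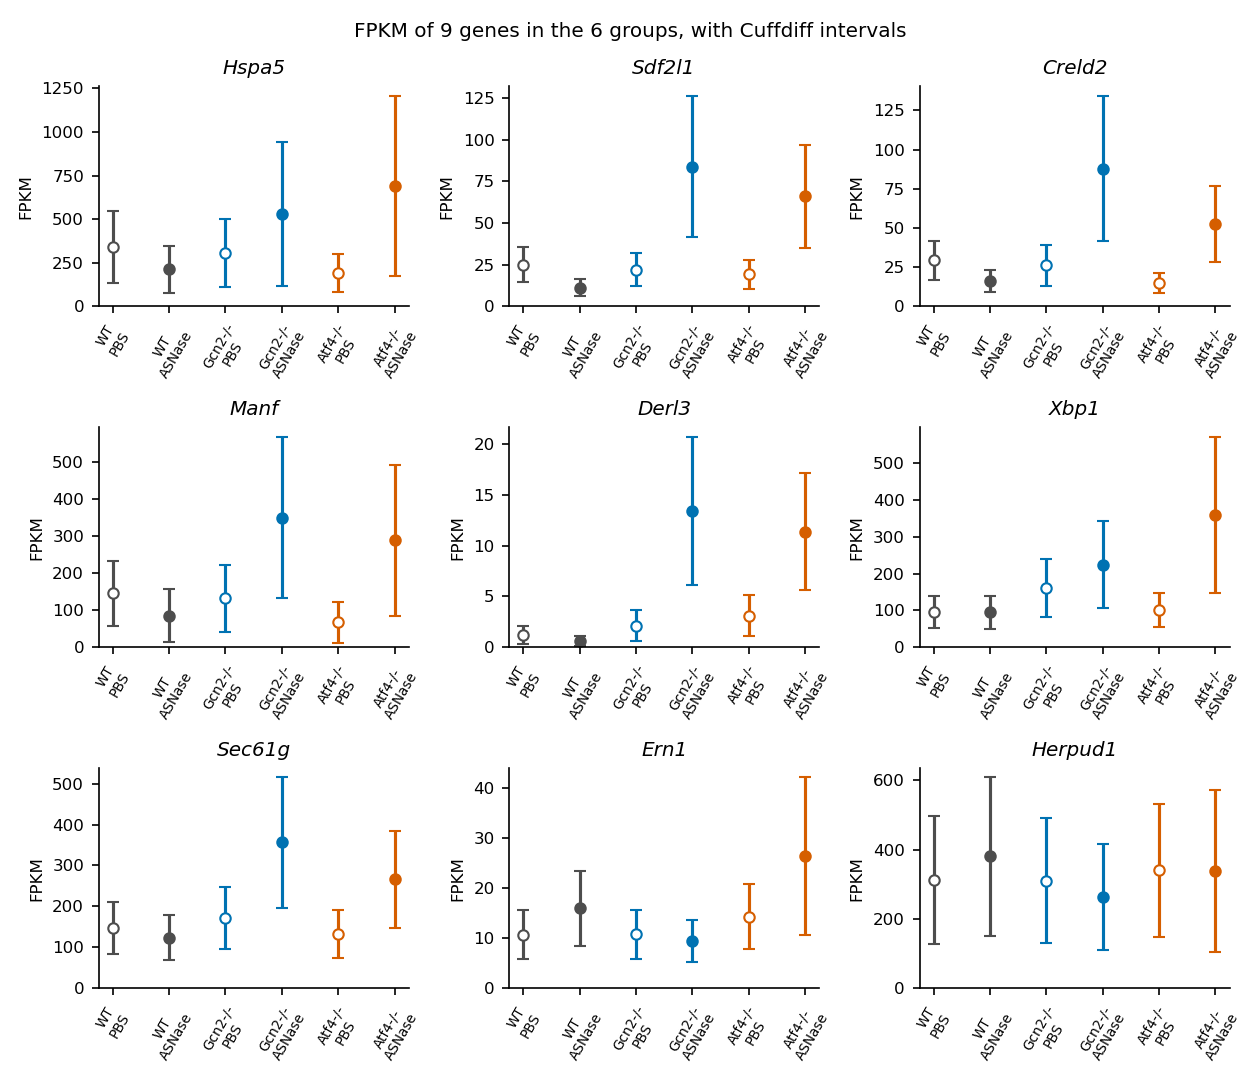
The vertical axes are FPKM, starting at 0, for 9 genes in the 6 groups, with open points for PBS, filled points for ASNase, and bars for the Cuffdiff interval of each group value. The intervals of Sdf2l1, Creld2 and Derl3 in the knockout ASNase groups lie above those of the PBS group of the same strain, and those of Hspa5, Manf, Ern1 and Herpud1 overlap.

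None of the 6 disulfide enzymes was called in the 8 comparisons, a count that, with so few genes, is near the share called over all genes. Their responses to ASNase had medians of -0.32 (WT), 0.70 (Gcn2-/-) and 0.63 (Atf4-/-). Pdia4 had 75.8 FPKM with PBS and 51.0 with ASNase in WT, 72.1 and 141 in Gcn2-/-, and 54.9 and 100.1 in Atf4-/- mice. Pdia3 had 156 FPKM in WT ASNase, 328 in Gcn2-/- ASNase and 325 in Atf4-/- ASNase, and Pdia6 had 79.8, 189.6 and 158. P4hb, which encodes protein disulfide isomerase itself and was the most abundant of the 38 in WT PBS at 693 FPKM, reached 1201 and 1250.1 in the knockout ASNase groups with intervals down to 0.

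The oxidases that recharge these isomerases differed between the knockouts in their values. Ero1l had 6.67 FPKM with PBS and 6.68 with ASNase in WT, 6.88 and 14.3 in Gcn2-/-, and 5.47 and 8.09 in Atf4-/- mice. Ero1lb had 12.6 and 11.9 FPKM (PBS and ASNase) in WT, 11.8 and 19.7 in Gcn2-/-, and 14.2 and 12.4 in Atf4-/- mice. Both were highest in Gcn2-/- ASNase, and the differences between the knockouts under ASNase, -0.81 for Ero1l and -0.67 for Ero1lb as Atf4-/- minus Gcn2-/-, lay inside overlapping intervals.

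In the degradation branch Derl3 stood apart from the other 8 genes. Derl3, a derlin of the channel through which misfolded proteins leave the ER, was the lowest of the 38 in WT PBS at 1.2 FPKM, and had 0.617 with ASNase. It went from 2.13 with PBS to 13.4 with ASNase in Gcn2-/- mice and from 3.12 to 11.4 in Atf4-/- mice. It rose 6.28-fold in Gcn2-/- mice, where it passed the minimum of 3 FPKM only through its ASNase value, and 3.65-fold in Atf4-/- mice. Its intervals in the knockout ASNase groups, 6.14 to 20.7 and 5.61 to 17.2, lay above those of the other 4 groups.

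Its homologs did not share this course. Derl1 had 42.6 FPKM in WT PBS and 70.5 in Atf4-/- ASNase, and 40.4 to 49.6 in the other 4 groups. Derl2 was lower after ASNase in all 3 strains, at 52.1 against 62.7 in WT, 65.3 against 73.4 in Gcn2-/- and 42.0 against 56.3 in Atf4-/- mice. The gene shares 231 exon bases with Mis12 on the opposite strand, which a library kit that does not keep strand cannot separate. Larger overlaps of this kind were found for Sec61a1 (549 bases, Gm44170), Hsp90b1 (415 bases, 1810014B01Rik) and Ssr2 (239 bases, Gm10704).

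Herpud1, an ER membrane protein that gathers the degradation complex, was the most abundant gene of this branch. In the branch, only Edem3 was also higher after ASNase in WT, and only Derl2 was also lower in Gcn2-/- mice. Herpud1 was nearly level in Atf4-/- mice. It had 312 FPKM with PBS and 381 with ASNase in WT, 310.2 and 263 in Gcn2-/-, and 340.2 and 339 in Atf4-/- mice. Of the 38 genes, Herpud1 was the only one highest in WT ASNase, where 10.3% of all genes were highest. The ubiquitin ligase gene Syvn1 (HRD1) had 31.5 FPKM with PBS and 22.1 with ASNase in WT, 31.1 and 56.9 in Gcn2-/-, and 19.5 and 40.9 in Atf4-/- mice, while its partner Sel1l varied less, from 25.6 to 35.4.

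The EDEM genes encode lectins that trim or carry glycoproteins to degradation. Edem1 had 27.2 FPKM in WT ASNase, 52.8 in Gcn2-/- ASNase and 38.1 in Atf4-/- ASNase. Edem2 had 22.1, 44.8 and 29.4, and Edem3 7.85, 12.3 and 9.45. In all 3 the Gcn2-/- value was the highest of the 6 groups, and no interval was separate from that of WT ASNase.

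The 6 translocation genes had similar profiles. All 6 were lower after ASNase in WT and higher in each knockout, and in all 6 the knockout ASNase groups lay above the other 4 groups. The channel subunit Sec61g had 147 and 124 FPKM (PBS and ASNase) in WT, 172 and 356 in Gcn2-/-, and 132 and 266 in Atf4-/- mice and was called between Gcn2-/- ASNase and WT ASNase at 2.88-fold, with intervals of 196 to 516 and 69.5 to 178. Under median-ratio scaling its log2 difference went from 1.53 to 1.48, under the limit, and the call ended. Sec61a1, the pore itself, had 54.2 FPKM in WT ASNase, 115 in Gcn2-/- ASNase and 136 in Atf4-/- ASNase, and Sec61b had 106, 246 and 168.

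Ssr1, Ssr2 and Ssr3 encode the translocon-associated TRAP complex. Ssr1 had 8.41 FPKM in WT ASNase, 20.3 in Gcn2-/- ASNase and 18.8 in Atf4-/- ASNase, Ssr2 had 49.5, 103 and 101, and Ssr3 had 80.7, 189 and 172. Ufm1, the modifier of ribosomes at the ER, had 45.4, 99.8 and 81.1. These 4 genes differed by at most 0.30 on the log2 scale between the knockouts under ASNase, and lay 0.84 to 1.26 above WT ASNase in both.

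**Figure D3:**
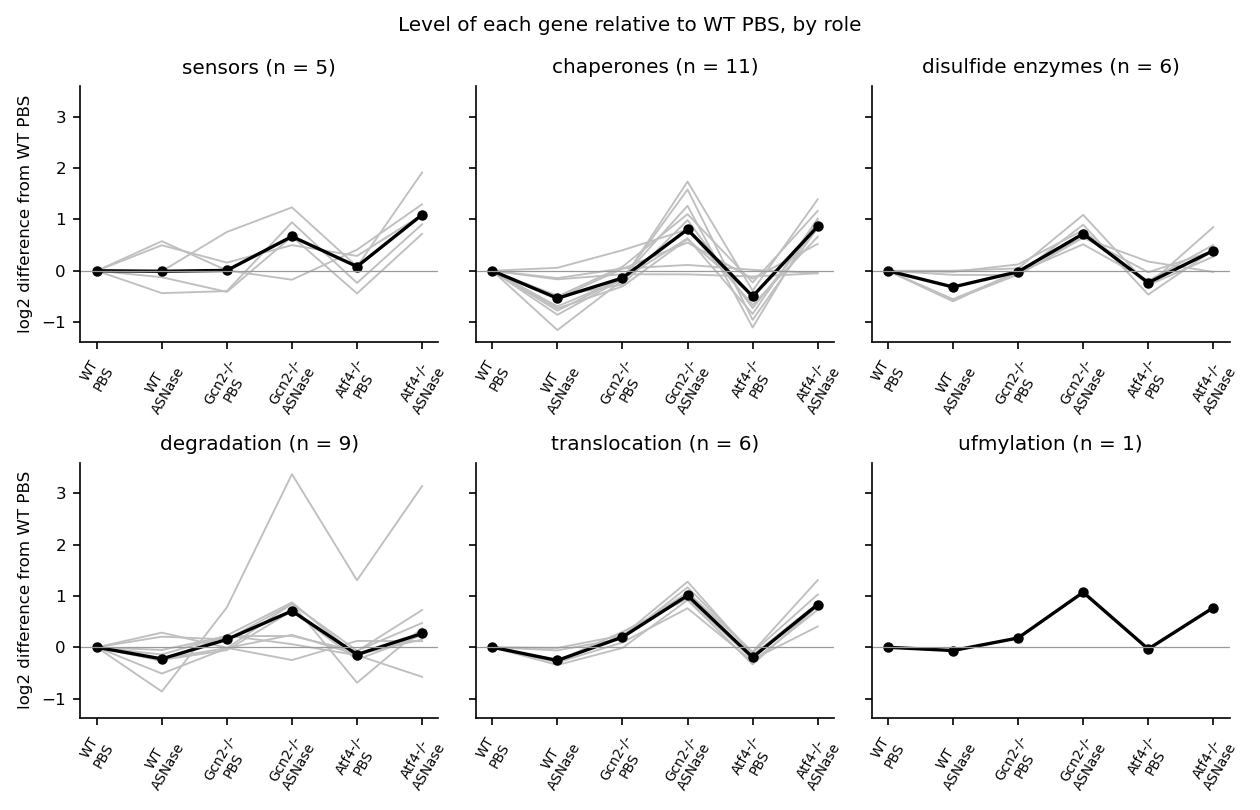
The vertical axis is the log2(FPKM + 0.1) difference from WT PBS in each of the 6 groups, with a grey line per gene and a black line for the median of its role. The medians dip in WT ASNase or stay near 0 and peak in the 2 knockout ASNase groups, and the grey line far above the others in the degradation panel is Derl3.

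The PBS groups compare the strains without ASNase. Between Gcn2-/- PBS and WT PBS none of the 37 genes that could be compared was called, Derl3 being under 3 FPKM in both, where 1.04% of all genes were, and the median difference was 0.01 on the log2 scale against 0.06 over all genes. Under median-ratio scaling it turned to -0.03. Between Atf4-/- PBS and WT PBS none was called either, where 1.12% of all genes were. In that comparison 31 of the 38 were lower in Atf4-/- mice, with a median of -0.18 against a median near 0 over all genes, of which 50.4% were higher, and chaperones were lowest at -0.50. Manf stood at -1.10 and Derl3 at 1.31 on the log2 scale, both with overlapping intervals, and of the 38 only Creld2, at -0.96, was over its combined error. The ratio of ASNase to PBS in Atf4-/- mice therefore starts from a lower level for most chaperones, and the comparison of groups under ASNase, which does not use the PBS groups, is given next.

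Under ASNase, 36 of the 38 genes were higher in Gcn2-/- than in WT mice and 36 of 38 higher in Atf4-/- than in WT mice. The median differences were 1.09 and 0.93 on the log2 scale, against 0.05 and 0.07 over all genes, of which 53.6% and 53.9% were higher. A difference of 1 was exceeded by 24 and 17 of the 38, where 6.83% and 10.5% of all genes exceeded it. Called and higher in Gcn2-/- were Derl3 at 21.7-fold, Sdf2l1 at 7.49-fold, Creld2 at 5.46-fold and Sec61g at 2.88-fold, where 1.83% of all genes were called higher. Called and higher in Atf4-/- were Derl3 at 18.5-fold, Sdf2l1 at 5.89-fold, Xbp1 at a ratio of 3.80 and Creld2 at 3.25-fold, where 2.59% of all genes were called higher. The Sec61g and Xbp1 calls ended under median-ratio scaling, at log2 differences of 1.48 and 1.85. This left 3 called genes in each comparison, Derl3, Sdf2l1 and Creld2. The lower genes were Ern1 and Herpud1 in Gcn2-/- mice and Herpud1 and Derl2 in Atf4-/- mice. These comparisons share the WT ASNase group. Derl3 had 0.617 FPKM there, so it passed the minimum of 3 only through the knockout groups, and its ratios rest on that low value.

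Between the knockouts under ASNase none of the 38 genes was called, where 3.19% of all genes were. Of the 38, 26 were lower in Atf4-/- than in Gcn2-/- mice, and the median difference was -0.13, where 50.3% of all genes were higher in Atf4-/- mice. Sensors tended higher in Atf4-/- mice, with a median of 0.59, and disulfide enzymes lower, with a median of -0.38. No interval of the 38 was separate between these groups, and of the 38 only the difference of Ern1, given above, was over its combined error, where 3.7% of all genes were higher beyond theirs.

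Ordered over the 6 groups, 25 genes were highest in Gcn2-/- ASNase and 10 in Atf4-/- ASNase, while over 10172 genes 18.4% and 33.8% were highest there. The lowest group was WT ASNase for 19 genes and Atf4-/- PBS for 14, while over all genes 13.2% and 12.5% were lowest there. In 32 of the 38 genes both knockout ASNase groups lay above the other 4, as did 27% of all genes. The 6 exceptions were Sil1, Canx, Ern1, Ero1lb, Herpud1 and Derl2.

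The ASNase response of the knockouts was set against that of WT by the difference of log2 differences, called different when it was over 1.5 and over the combined error of the 4 values. The response of Gcn2-/- mice was larger than that of WT in 35 of 38 genes and differed by this rule in 6: Derl3, Sdf2l1, Creld2, Manf, Atf6b and Pdia4, where 2.57% of all genes did so in that direction. The response of Atf4-/- mice was larger in 35 of 38 and differed in 10: Sdf2l1, Manf, Derl3, Creld2, Hspa5, Calr, Hyou1, Dnajb11, Xbp1 and Atf6b, where 2.87% of all genes did so. The median difference from the WT response was 1.03 for Gcn2-/- and 1.23 for Atf4-/- mice over the 38 genes, against -0.01 and 0.04 over all genes. Between the knockouts 0 of the 38 differed, where 1.55% of all genes were larger and 3.04% smaller in Atf4-/- mice. The rule compares sizes of group values and is no statistical test.

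Across the 38 genes, those with a lower value after ASNase in WT tended to have a higher one in Gcn2-/- mice. The correlation across genes of the WT response with the Gcn2-/- response was -0.68 by Pearson and -0.54 by Spearman (38 genes), where it was -0.04 and 0.04 over 9523 genes. Between WT and Atf4-/- it was -0.46 and -0.37, where it was 0.34 and 0.24 over 9698 genes, and between the knockouts it was 0.68 and 0.65, where it was 0.62 and 0.59 over 9684. Derl3 was under 3 FPKM in both WT groups. Without it, as checked after seeing the data, the values for 37 genes were -0.65 and -0.50 between WT and Gcn2-/-, -0.42 and -0.32 between WT and Atf4-/-, and 0.67 and 0.63 between the knockouts. Genes are not independent replicates and all points share the processing of 1 table, so these are descriptions.

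**Figure D4:**
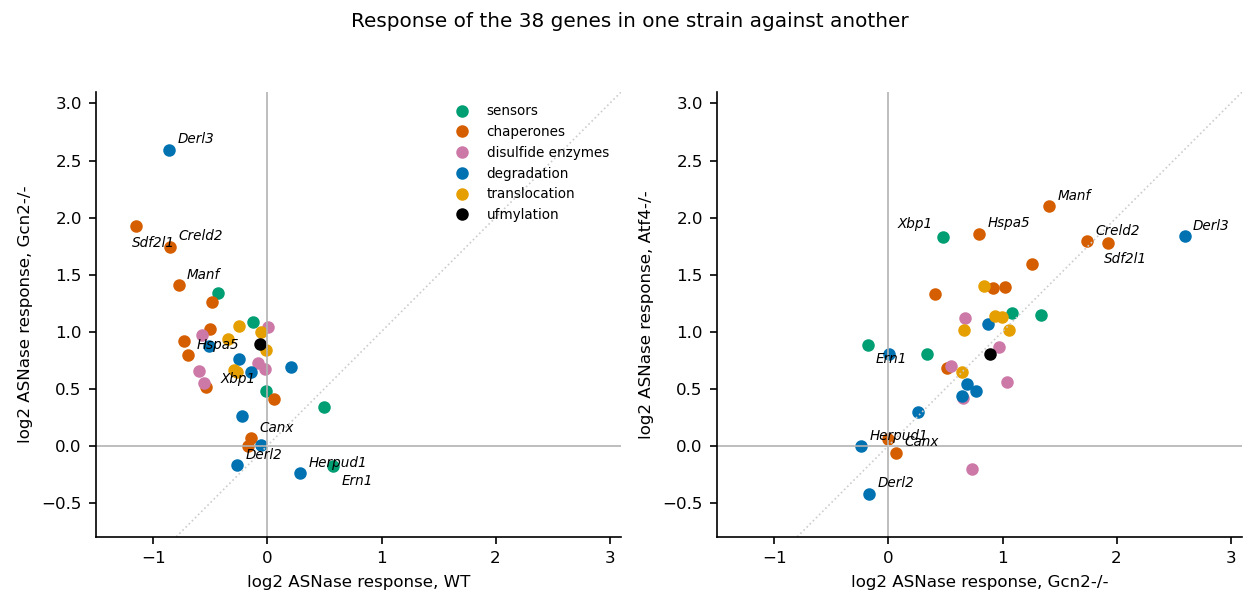
Each point is 1 of the 38 genes, colored by role, with the log2 ASNase response of WT against Gcn2-/- on the left and of Gcn2-/- against Atf4-/- on the right, and the dotted line marks equal responses. In the left panel Derl3, Sdf2l1, Creld2 and Manf lie below 0 in WT and above 1 in Gcn2-/-, and in the right panel most genes lie above 0 on both axes.

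Other genes of the pathway were taken from lists of 82 names, of which 79 were found. Among 18 further folding genes, 17 were higher after ASNase in Gcn2-/- and 18 in Atf4-/- mice, against 3 in WT, with medians of 0.55, 0.64 and -0.09. Among 25 further translocation and glycosylation genes, 24 that could be compared were all higher in Gcn2-/- mice and 23 of 24 in Atf4-/- mice, against 4 of 23 in WT. Spcs2 of the signal peptidase and Rpn1 of the oligosaccharyltransferase were called between Gcn2-/- ASNase (66.5 and 69.4 FPKM) and WT ASNase (20.9 and 22.4 FPKM). In that comparison 1.83% of all genes were called higher. The 15 further degradation genes found had medians of -0.05 in WT, 0.10 in Gcn2-/- and 0.47 in Atf4-/- mice, and the 5 further ufmylation genes -0.25, 0.08 and 0.24.

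The PERK and integrated stress branch went its own way. Its 10 genes had median responses to ASNase of 0.66 in WT and 2.97 in Atf4-/- mice, and the 9 that could be compared in Gcn2-/- mice, Chac1 left out as under 3 FPKM, had 0.34. Trib3, a pseudokinase induced by ATF4 and CHOP, had 5.46 FPKM with PBS and 19.5 with ASNase in WT, 7.52 and 3.39 in Gcn2-/-, and 3.63 and 149.6 in Atf4-/- mice, and rose in WT and in Atf4-/- mice. In Atf4-/- mice the transcription factor gene Atf3 rose from 0.896 to 13.3 FPKM, the glutathione-degrading enzyme gene Chac1 from 3.06 to 23.7, asparagine synthetase (Asns) from 0.591 to 20.1 and the stress gene Nupr1 from 0.501 to 7.07. Of these, Atf3, Asns and Nupr1 passed the minimum of 3 FPKM only through their ASNase values. Under ASNase Trib3 was lower in Gcn2-/- than in WT mice and was called, at -2.49 on the log2 scale. In Atf4-/- mice under ASNase, Atf3, Trib3 and Chac1 were called higher than in WT, by 2.05, 2.93 and 2.87. Trib3 and Chac1 were called higher than in Gcn2-/- mice, by 5.42 and 2.99. In that comparison Chac1 passed the minimum only through its Atf4-/- value. Of all genes, 2.59% were called higher in Atf4-/- than in WT mice, and 3.19% were called in either direction between the knockouts.

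Ddit3, which encodes CHOP, had 12.8 FPKM with PBS and 18.7 with ASNase in WT, 9.87 and 15.1 in Gcn2-/-, and 8.87 and 73.1 in Atf4-/- mice, with intervals reaching 0 in 5 of the 6 groups. Eif2ak3, the gene of PERK, was not called and had its widest difference within Atf4-/- mice, from 4.58 FPKM with PBS to 9.22 with ASNase. Of the stress genes that could be compared, 9 of 10 were higher after ASNase in WT, 7 of 9 in Gcn2-/- and 9 of 10 in Atf4-/- mice, and those called were 1, 0 and 5. Of the 5, Atf3, Asns and Nupr1 passed the minimum of 3 FPKM only through their ASNase values. Over all genes, 0.881% were called in either direction in WT, and 1.56% and 2.74% were called higher in Gcn2-/- and Atf4-/- mice. With 9 genes, 0 called is near the Gcn2-/- share. The 6 genes of ATF6 processing and related factors had 2 of 4 higher in WT, 2 of 4 in Gcn2-/- and 3 of 5 in Atf4-/- mice among those that could be compared. Among them Creb3l3, a liver-enriched relative of ATF6 that is also cut in the Golgi, fell in Atf4-/- mice from 125 to 26.0 FPKM, and stood at 124 in Gcn2-/- ASNase.

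Markers of other cell types differed between the groups and are given beside these results. The 9 pancreatic acinar genes listed, from a cell type with a very large ER, summed to 13.2 FPKM with PBS and 67.1 with ASNase in WT, 10.6 and 5.47 in Gcn2-/-, and 16.0 and 349.6 in Atf4-/- mice. Ctrb1 had 176 FPKM in Atf4-/- ASNase and 19.7 in WT ASNase, where the 38 genes were low. In Gcn2-/- ASNase, where the 38 genes were high, 6 of the 9 acinar genes were listed at 0 and Ctrb1 had 0.018. The part of acinar RNA in the Atf4-/- ASNase values was not tested.

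Of the 6 plasma and B cell markers found, Igkc, a light chain of immunoglobulin, went from 32.8 FPKM with PBS to 18.2 with ASNase in WT mice, from 15.0 to 5.0 in Gcn2-/- and from 28.2 to 3.79 in Atf4-/- mice. The defining genes Cd79a and Cd79b were under 0.3 FPKM in both knockout ASNase groups. In WT they were also low, at 0.974 and 1.49 FPKM with PBS and 0.22 and 0.45 with ASNase. The 6 summed markers ran from 58.5 in Atf4-/- ASNase to 150.2 in WT PBS, and most of each sum was Sdc1, which hepatocytes also express. The other 5 summed to 37.4 with PBS and 19.9 with ASNase in WT, 17.8 and 5.74 in Gcn2-/-, and 31.7 and 4.12 in Atf4-/- mice. The 6 Kupffer and myeloid genes found did not move together. Marco, a scavenger receptor, had 117.5 FPKM in Gcn2-/- ASNase and 67.3 in Atf4-/- ASNase and 3.45 to 9.22 in the other groups, while Clec4f, a Kupffer cell lectin, went from 67.3 with PBS to 15.9 with ASNase in Gcn2-/- and from 102 to 30.1 in Atf4-/- mice. Lyz2 went from 54.1 to 134 in Gcn2-/- and from 100.2 to 38.5 in Atf4-/- mice, and Cd5l, Emr1 and Csf1r were also lower after ASNase in Atf4-/- mice. The 6 genes summed to 336 in Gcn2-/- ASNase, 185 in Atf4-/- ASNase and 155 to 334 in the other groups. The part of these cells was not tested.

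Hepatocyte genes marked the tissue as liver in every group, and 6 of them summed to 17395 FPKM with PBS and 14444 with ASNase in WT, 18436 and 9329 in Gcn2-/-, and 15949.8 and 7484 in Atf4-/- mice. The lower sums in the knockout ASNase groups came from Apoa1, Ttr and Cyp2e1, and the list split. Tat, a tyrosine-degrading enzyme gene, went from 613 to 1987 FPKM in Gcn2-/- and from 952 to 2013 in Atf4-/- mice, and Hnf4a, a hepatocyte transcription factor gene, from 149 to 145 and from 165 to 213. Cps1 went from 754 to 779 in Gcn2-/- and from 791 to 498 in Atf4-/- mice. The 8 skeletal muscle genes summed to 824 and 1156 in the WT groups, 63.2 and 125 in Atf4-/- mice, and 5.79 and 8.85 in Gcn2-/- mice, and their part in the results was not tested. The 4 biliary genes summed to 2.68 to 4.79 and the 4 neutrophil genes to 1.32 to 16.1. FPKM is a share of all fragments, so a lower amount of abundant mRNA raises the share of the rest. After median-ratio scaling of the groups the medians over all genes moved by less than 0.1, and 33 of the 38 genes were higher after ASNase in each knockout and 5 in WT. The Sec61g and Xbp1 calls ended, at log2 differences of 1.48 and 1.85 against 1.53 and 1.93 before scaling.

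**Figure D5:**
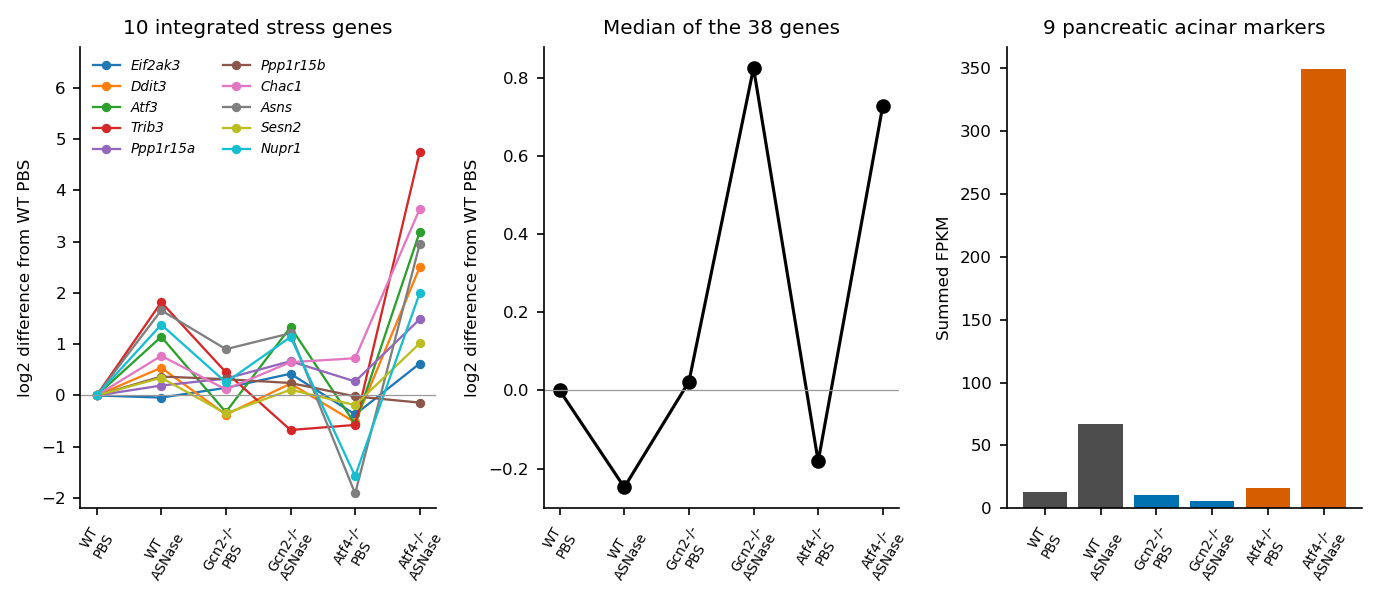
The left panel plots the 10 PERK and integrated stress genes and the middle panel the median of the 38 genes, both as log2(FPKM + 0.1) difference from WT PBS, and the right panel plots the summed FPKM of 9 pancreatic acinar markers as bars from 0. The median of the 38 genes is high in both knockout ASNase groups, while the acinar sum and the stress genes other than Ppp1r15b peak in Atf4-/- ASNase.

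FPKM summed over a gene does not check the deletions here. Eif2ak4, the gene of GCN2, had 2.31 (PBS) and 2.96 FPKM (ASNase) in Gcn2-/- mice against 3.04 and 2.39 in WT, and Atf4 had 32.3 and 29.3 in Atf4-/- mice against 50.4 and 63.1 in WT. Such a sum can hold a transcript without the deleted part.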

How the data were processed

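Livers of 18 mice in 6 groups of 3 were measured by RNA-Seq of poly-A RNA. The submitters' processing notes name TopHat, Cuffdiff and mm10. The authors deposited 1 FPKM value per gene and group, estimated by Cuffdiff from 3 libraries together, with lower and upper bounds and a status. The deposited table holds 37303 genes and no counts, library depth was not used here, and Cuffdiff's intervals carry its own model of replicate spread. Values not marked OK by Cuffdiff (160 in all) were not used.

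Values were compared as log2(FPKM + 0.1), a scale that understates changes of low genes, in 8 comparisons. A gene could be compared when its FPKM was over 3 in either group, was above 0 in both, and had status OK in both. It was called when the log2 difference was over 1.5 and the intervals were separate. No test was run. The error of a value on the log2 scale is the distance from FPKM to its upper bound divided by (FPKM + 0.1) and by the natural log of 2, and errors were combined by root sum of squares. Alternatives were pseudocounts of 0.01 and 1, median-ratio scaling, other FPKM filters and other call rules. The genes named were all 38 members and the called genes of the pathway lists, and the members and lists were chosen with earlier results of these data known. The calling steps were run on simulated data with changes far larger than the limit of 1.5 and noise narrower than the intervals. That run does not check calls near the limit. Gene positions came from GENCODE M21, promoter windows from RefSeq (GRCm38.p6). Python 3.11.15, numpy 2.4.6, pandas 2.3.3, scipy 1.17.1 and matplotlib 3.10.9 were used.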

Additional observations from a re-analysis of the deposited data

Results flagged for a closer look

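The ASNase response of 6 genes differed between Gcn2-/- and WT mice by more than 1.5 on the log2 scale and by more than the combined error of the 4 values. The differences, Gcn2-/- minus WT, were 3.46 for Derl3, 3.08 for Sdf2l1, 2.60 for Creld2, 2.18 for Manf, 1.78 for Atf6b and 1.54 for Pdia4. Each exceeds its combined error, which was 1.33 for Sdf2l1 and 1.91 for Derl3. Between Atf4-/- and WT mice 10 genes differed in this way. The differences, Atf4-/- minus WT, were 2.94 for Sdf2l1, 2.87 for Manf, 2.70 for Derl3, 2.65 for Creld2, 2.55 for Hspa5, 2.11 for Calr, 2.08 for Hyou1, 1.89 for Dnajb11, 1.84 for Xbp1 and 1.58 for Atf6b. Their combined errors, in the same order, were 1.32, 2.16, 1.87, 1.28, 1.85, 1.945, 1.69, 1.72, 1.45 and 1.53. Atf6b, Calr and Dnajb11 passed by the least. These are comparisons of size, and each difference was not tested, since the table gives 1 value per group. Derl3 was under 3 FPKM in both WT groups, so its response there rests on low values.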

How the results depend on the processing

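Of 82 alternatives that give a count, 63 gave the main count, 9 differed from it by at most 1.5 times and 10 by more. Of 24 alternative medians of the 38 genes, 23 kept their sign, and the exception was Gcn2-/- against WT under PBS with median-ratio scaling (0.01 to -0.03). Median-ratio scaling also ended the Sec61g call between Gcn2-/- and WT ASNase and the Xbp1 call between Atf4-/- and WT ASNase, from 4 to 3 called genes in each. With the combined error in place of separate intervals, the called genes went from 3 to 7 for the Atf4-/- response, from 4 to 8 between Atf4-/- and WT ASNase and from 4 to 6 between Gcn2-/- and WT ASNase, where 10.2%, 11.3% and 6.34% of all genes were called in either direction. With a limit of 1.5 whatever the intervals, a rule chosen after seeing the data, they were again 7, 8 and 6, where 12.2%, 13.3% and 7.67% of all genes were called in either direction. The Gcn2-/- response stayed at 3, where 6.58% were called in either direction. The called genes of the 38 were all higher in these comparisons, and in the Atf4-/- response 5.23% of all genes were higher by this rule. With the combined error and a limit of 1, also chosen after seeing the data, they were 8 for the Gcn2-/- response (9.7% of all genes), 16 for the Atf4-/- response (16.6%), 19 between Gcn2-/- and WT ASNase (10.4%) and 15 between Atf4-/- and WT ASNase (17.4%). Here too the genes of the 38 were all higher, and the shares count both directions. Under the same rule 1 was called for the WT response (Sdf2l1), near the 1.75% of all genes in either direction, and 1 between the knockouts under ASNase (Ern1), below the 8.78% of all genes in either direction. A limit of 1 with separate intervals added Dnajb9 to the Atf4-/- response, from 3 to 4, where 7.99% of all genes were called in either direction. Responses that differed from WT went from 6 to 8 in Gcn2-/- and from 10 to 15 in Atf4-/- mice with a limit of 1, and from 10 to 9 in Atf4-/- mice with a pseudocount of 1 and with scaling. The shares of all genes, 2.57% and 2.87%, are for the limit of 1.5 and are no background for the counts at 1. No paired analysis was possible because the table holds no value per library, and leaving out replicates and the replicate block were not run for the same reason.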
